A study of Mus musculus with 15 samples.

Results

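The 33 genes of glycolysis, lactate handling and the pentose phosphate pathway were followed in the transcriptomes of WT and KO T cells after transfer into lymphopenic mice. The members were taken from a list of gene symbols that was drawn up with earlier results of these data known, and all 33 were found among the 55421 genes of the count tables. The study asked how AMPKα1, an energy-sensing kinase subunit encoded by Prkaa1, shapes T cells that expand in vivo. Naive CD4+ T cells of C57BL/6 strain donors with floxed Prkaa1 alleles, were transferred into Rag2-/- recipients. Donors that lacked Cre are called WT and those carrying CD4-Cre KO. After 6 weeks CD4+ T cells were sorted from spleen or mesenteric lymph nodes (mLN). The sequenced groups were WT spleen (n = 4), KO spleen (n = 4), WT mLN (n = 3, replicates 1, 2 and 4) and KO mLN (n = 4), and both genotypes carried the floxed alleles. CD4-Cre acts from the CD4+CD8+ thymocyte stage onward, so that deletion starts long before transfer. The recipients lack T and B cells of their own, the samples come from 1 experiment with young adult mice, and all groups hold T cells that expanded in a lymphopenic host.

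Glycolysis breaks glucose down to pyruvate, and activated T cells are known to use it heavily, passing much of the pyruvate on to lactate even when oxygen is present. The pentose phosphate pathway branches off at glucose 6-phosphate. Its oxidative arm yields NADPH, and its non-oxidative arm exchanges ribose for glycolytic sugars. HIF-1α and MYC are the transcription factors best known for driving these genes, and AMPK can act on the pathway by phosphorylating the bifunctional enzymes that make or remove fructose 2,6-bisphosphate, a strong activator of phosphofructokinase.

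Between 9363940 and 11283439 reads per sample lay on genes. Levels are given as CPM, the counts divided by the TMM-scaled number of reads on genes in the usual per-megaread unit, and the number of samples and the reads per gene limit their precision. Prkaa1 stood at 53.4, 48.5, 46.6 and 52.5 CPM in WT spleen and at 19.96, 21.2, 18.4 and 20.5 in KO spleen, and at 50.9, 60.6 and 51.1 in WT mLN and 25.9, 32.3, 21.4 and 32.3 in KO mLN. It was thus lower in every KO sample, with log2 fold changes of −1.33 in spleen (adjusted p = 7.63e-05) and −0.95 in mLN (adjusted p = 0.0372, edgeR), and Prkaa2 had at most 1 count. Some Prkaa1 reads remained in every KO sample, and their source was not tested. The summed level of 8 CD4 T cell markers was 6929 to 9587 CPM in all samples, against 39.7 to 548 CPM for 6 B cell markers, nearly all of it Ighm, and 79.0 to 611 CPM for 7 myeloid markers. Red cell markers (6 genes, mainly the globins) set 3 WT libraries apart, with 1902 and 882 CPM in WT spleen 3 and 4 and 814 CPM in WT mLN 4, against 17.8 to 119 CPM in the other 12.

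The members together took 0.51% to 0.827% of the reads on genes. Per kilobase of exon, lactate dehydrogenase A (Ldha) and aldolase A (Aldoa) were the most abundant members, with a mean level over the 15 samples of 284 and 272 CPM per kb, followed by pyruvate kinase (Pkm) at 191 and enolase 1 (Eno1) at 132 CPM per kb. Between neighbours in this order the ranges overlapped. In WT spleen Ldha and Aldoa were at 226 ± 13.6 and 237 ± 42.5 CPM per kb (SD, n = 4). The pentose phosphate enzyme transaldolase (Taldo1) came next with 102 CPM per kb, and Hif1a, the gene of HIF-1α, then with 84.9. At the other end stood Pfkfb2 (0.458 CPM per kb), Pfkfb4 (0.609) and aldolase C (Aldoc, 0.878). Levels therefore spanned a wide range, and no member was absent, since the lowest count of any member in any sample was 8.

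**Figure D1:**
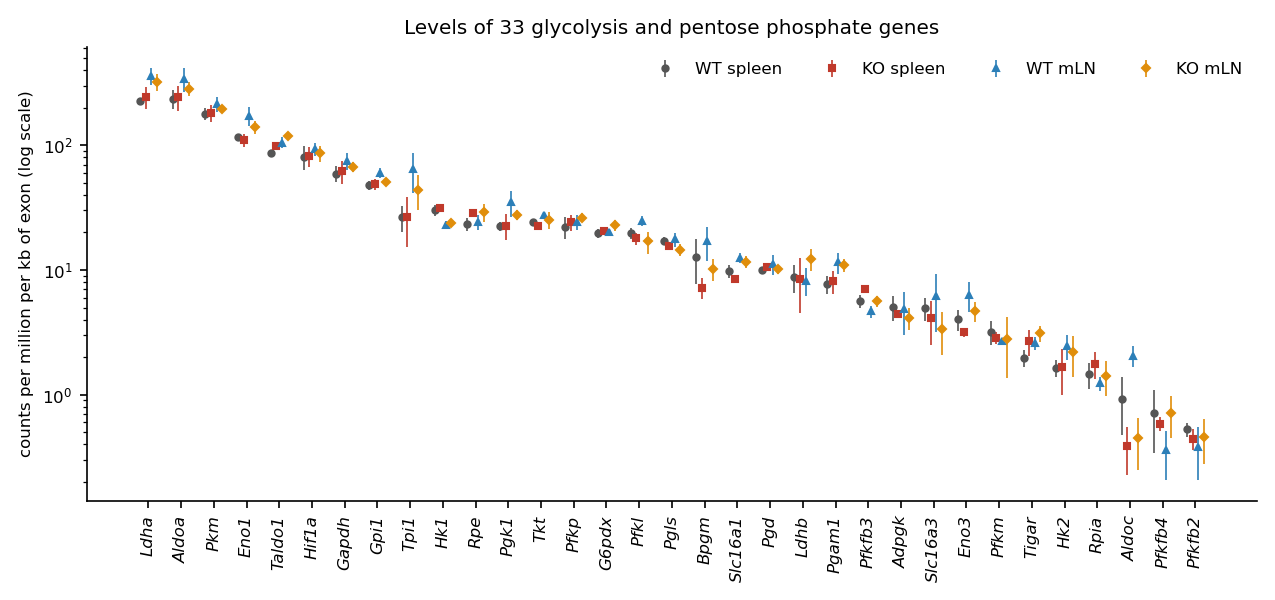
Mean level of each member in CPM per kb of exon (log axis) in WT spleen, KO spleen, WT mLN and KO mLN, with bars for the SD over samples. The members run from Ldha at 284 to Pfkfb2 at 0.458 CPM per kb averaged over all samples, and the separation between groups is small against that range, Aldoc showing the widest.

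Where several genes encode the same step, 1 of them usually supplied most of the transcripts per kb. Hexokinase 1 (Hk1) made up 72.1% to 85.3% of the summed level of Hk1, Hk2 and the ADP-dependent glucokinase Adpgk. Pfkp and Pfkl, the platelet-type and liver-type phosphofructokinases, shared the next step, with Pfkp at 45.5% to 60.7% and Pfkl at 31.0% to 49.0% of the 3 isozymes, while muscle-type Pfkm supplied the small rest. Aldoc was at most 0.79% of the aldolases, Eno3 at most 5.13% of the enolases and Ldhb at most 6.15% of the lactate dehydrogenases. Of the summed level of the bifunctional enzymes Pfkfb2, Pfkfb3 and Pfkfb4, Pfkfb3 made up 72.4% to 91.0%. Tigar, which also removes fructose 2,6-bisphosphate, was not part of this sum.

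In WT T cells, 8 enzymes from glucose 6-phosphate isomerase to lactate dehydrogenase, among them Tpi1, Pgk1, Eno1 and Ldha, were higher in mLN than in spleen, and hexokinase 1 was lower. In KO T cells Eno1 was the enzyme of that stretch that passed the test. In WT mLN, 8 of the 33 members rose and 1 fell (edgeR quasi-likelihood test, adjusted p under 0.05 over 14515 genes), against backgrounds of 9.7% of all genes called higher and 10.8% called lower. The groups did not overlap for 12 members, which is 36.4% of them, and for 31.9% of all genes. Over all members the median log2 fold change was 0.27, with 25 of 33 positive, while the median over all genes was 0.00. The summed level of the 11 main enzymes from Gpi1 to Pkm and Ldha was 4082 ± 393 CPM in WT spleen and 5661 ± 935 in WT mLN (SD), against 4166 ± 706 in KO spleen and 4905 ± 498 in KO mLN, where it overlapped, a sum dominated by Ldha, Aldoa, Pkm and Eno1. In these bulk samples a larger share of cells with high levels and more RNA per cell cannot be told apart. Same-numbered WT samples deviated together, although the reported test was unpaired. With the replicate number as a block 18 members were called, 17 higher and 1 lower, while 29.98% of all genes were called in that fit. Leaving out WT spleen 2 or WT mLN 4 left 3 (Eno1, Ldha and Tpi1), and leaving out WT spleen 1 or WT mLN 1 left 5. These smaller counts are not set against the share of all genes called in the same refits.

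The largest rise in the upper part of the pathway was that of triosephosphate isomerase (Tpi1, chr6:124810586-124814296), which interconverts the 2 triose phosphates. Tpi1 stood at 86.7, 70.2, 85.2 and 49.1 CPM in WT spleen and at 231, 109 and 189 CPM in WT mLN. Every mLN sample was above every spleen sample, with a log2 fold change of 1.26 (SE 0.25, adjusted p = 0.00876). Glucose 6-phosphate isomerase (Gpi1) was at 330.2, 309, 325 and 274 CPM in WT spleen and at 426, 350.1 and 389 CPM in WT mLN. Pfkl, the liver-type isozyme of the committing step, was at 146, 131, 133 and 114 CPM in WT spleen and at 180.0, 149.8 and 168 CPM in WT mLN. Neither gene overlapped between the organs, and they rose by 0.32 (SE 0.10, adjusted p = 0.0435) and 0.33 (SE 0.10, adjusted p = 0.0454) on the log2 scale. Pfkp and Pfkm overlapped, with log2 fold changes of 0.13 and −0.26. Aldoc, the brain-type aldolase, was at 2.70, 2.37, 1.82 and 5.15 CPM in WT spleen and at 7.29, 5.21 and 7.51 in WT mLN, a rise of 1.13 (SE 0.35) whose adjusted p of 0.05 was just under the threshold. The abundant Aldoa had 740.0, 598, 839.7 and 579 CPM in WT spleen and 1178, 747 and 1061 in WT mLN, where WT mLN 2 fell within the spleen range, and it was not called (log2 fold change 0.52, adjusted p = 0.0616).

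Of the 7 members of lower glycolysis, all had positive log2 fold changes in WT mLN and 3 were called. Phosphoglycerate kinase (Pgk1), the first ATP-yielding enzyme, was at 55.2, 45.8, 52.5 and 47.5 CPM in WT spleen and at 95.2, 58.9 and 80.7 CPM in WT mLN (log2 fold change 0.63, SE 0.15, adjusted p = 0.0173). Phosphoglycerate mutase (Pgam1) was at 14.7, 15.6, 18.5 and 12.3 CPM in WT spleen and at 27.8, 19.9 and 20.9 CPM in WT mLN (0.57, SE 0.18, adjusted p = 0.0485). Eno1 was at 676, 606, 600.3 and 616 CPM in WT spleen and at 1009, 737 and 1039.6 CPM in WT mLN (0.56, SE 0.12, adjusted p = 0.011). All 3 were separated between the organs, and WT mLN 2 was the lowest mLN sample for each. The other 4 overlapped. Eno3, the muscle-type enolase, had 5.40, 7.74, 6.40 and 8.36 CPM in WT spleen and 7.48, 12.9 and 12.6 in WT mLN. Gapdh, which oxidises glyceraldehyde 3-phosphate, had 272, 240.2, 269 and 197 CPM in WT spleen and 356, 264 and 308 in WT mLN. Their log2 fold changes were 0.65 and 0.33, with adjusted p-values of 0.0987 and 0.112. For Pkm, which makes pyruvate, the log2 fold change was 0.24 (adjusted p = 0.183). For Bpgm, which makes 2,3-bisphosphoglycerate and is best known from red cells, it was 0.41 (adjusted p = 0.383).

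Ldha (chr7:46841475-46855627), which reduces pyruvate to lactate, had the smallest p-value of all members between the WT organs. It stood at 808, 727, 754 and 704 CPM in WT spleen and at 1368, 990.4 and 1234 CPM in WT mLN. The WT groups were far apart, with a log2 fold change of 0.67 (SE 0.11, adjusted p = 0.0037). Slc16a1, a lactate and pyruvate carrier (MCT1), was at 39.5, 44.4, 39.8 and 50.1 CPM in WT spleen and at 49.4, 58.5 and 57.9 in WT mLN, which overlapped and were not called (0.34, adjusted p = 0.068). Ldhb and the lactate exporter Slc16a3 (MCT4) overlapped widely between the organs (log2 fold changes −0.10 and 0.31).

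Hexokinase 1 (Hk1, chr10:62268855-62379908), which traps glucose in the cell, was lower in mLN in both genotypes. Hk1 was at 276, 259, 272 and 219 CPM in WT spleen and at 212, 195 and 181 CPM in WT mLN, a fall of 0.40 on the log2 scale (SE 0.10, adjusted p = 0.022). In KO it was at 268, 252, 266 and 285 CPM in spleen and at 197, 202, 209 and 205 CPM in mLN, a fall of 0.42 (SE 0.06, adjusted p = 0.000524). All 7 mLN samples lay below all 8 spleen samples. Hexokinase 2 (Hk2), the inducible isozyme, was at 8.30, 10.01, 11.8 and 8.85 CPM in WT spleen and at 18.3, 11.6 and 14.1 CPM in WT mLN (0.58, adjusted p = 0.0698), where only WT spleen 3 reached into the mLN range. The share of Hk2 in the summed level per kb of Hk1, Hk2 and Adpgk was 4.44% ± 0.63 in WT spleen and 8.15% ± 1.81 in WT mLN (SD).

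**Figure D2:**
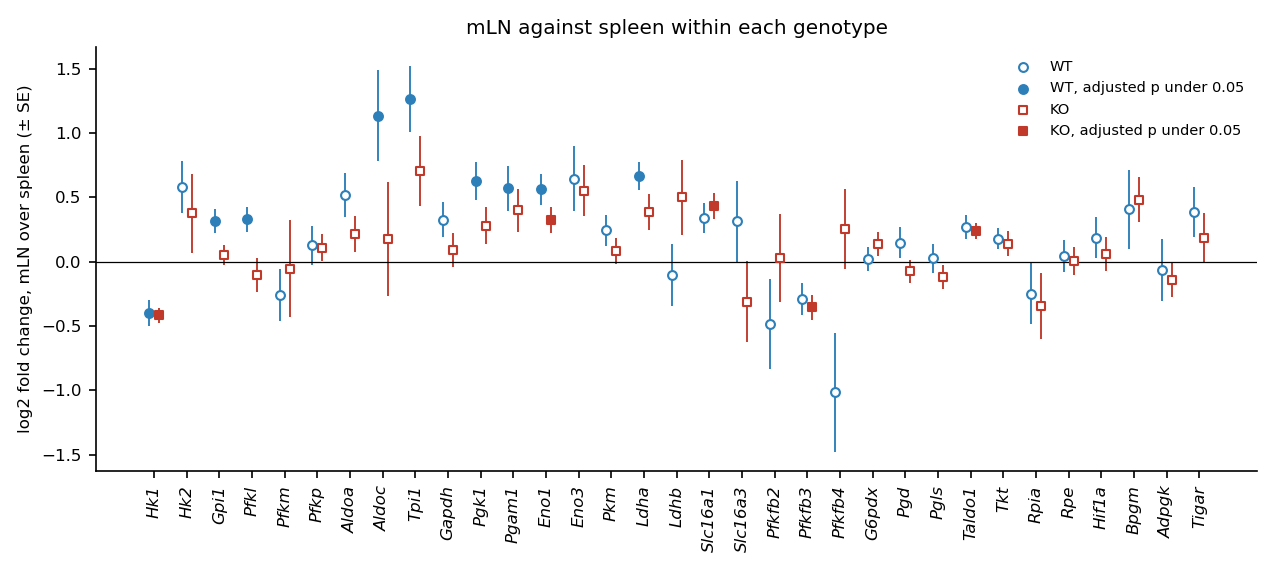
Log2 fold change of mLN over spleen for each member (± SE) in WT and in KO T cells, in the order of the member list. Filled symbols mark an edgeR adjusted p under 0.05. WT values from Gpi1 to Ldha lie above 0 except for Pfkm, Hk1 lies below 0 in both genotypes, and most KO values lie nearer to 0 than the WT values.

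In KO T cells, 3 members rose in mLN and 2 fell, against backgrounds of 11.4% and 13.9% of all genes (14240 tested), so that the members' share was not above that of all genes. The median log2 fold change was 0.14, with 24 of 33 positive, against 0.01 over all genes (50.8% positive). The groups did not overlap for 5 members, or 15.2%, and for 28.8% of all genes. Eno1 and Hk1 were called in both genotypes, which is 22.2% of the WT calls and 40% of the KO calls. The organ difference had the same sign in both genotypes for 26 members (78.8%), as it had for 79.6% of the 13945 genes tested in both. Without KO spleen 1 or KO mLN 2, 3 members were called in KO, a count not set against the share of all genes in those refits. Eno1 was at 535, 529.6, 676 and 633 CPM in KO spleen and at 862, 774, 662 and 716 CPM in KO mLN, overlapping through KO mLN 3 and KO spleen 3 (log2 fold change 0.33, SE 0.10, adjusted p = 0.0323). Slc16a1 was at 38.6, 40.3, 34.5 and 37.6 CPM in KO spleen and at 50.4, 59.0, 52.0 and 45.2 in KO mLN, without overlap (0.43, SE 0.10, adjusted p = 0.0101). Pfkfb3, the bifunctional enzyme whose kinase activity most exceeds its phosphatase activity, was at 49.5, 51.4, 54.0 and 58.1 CPM in KO spleen and at 45.9, 39.2, 45.6 and 38.4 CPM in KO mLN. It fell by 0.35 on the log2 scale (SE 0.10, adjusted p = 0.021), again without overlap. In WT it was at 43.3, 47.3, 44.6 and 35.3 CPM in spleen and at 39.7, 32.9 and 32.8 in mLN, with overlap and a log2 fold change of −0.29 that was not called (adjusted p = 0.134).

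Of the 8 enzymes that rose in WT mLN, Eno1 was the one also called in KO mLN. Ldha was at 655, 689.9, 977 and 906 CPM in KO spleen and at 1265, 1124, 892 and 997 in KO mLN (log2 fold change 0.39, adjusted p = 0.0609). Tpi1 was at 52.9, 49.1, 118 and 74.4 CPM in KO spleen and at 179, 98.5, 103 and 106 in KO mLN (0.70, adjusted p = 0.0793). Both overlapped between the organs, and KO spleen 3 was the highest spleen sample for each. KO spleen 3 was the highest sample of its group for 18 of the 33 members, and KO mLN 1 for 16. Pgam1 in KO was at 12.1, 14.5, 18.7 and 19.3 CPM in spleen and at 19.6, 24.0, 19.3 and 23.6 in mLN (0.40, adjusted p = 0.101). Eno3 was at 5.97, 5.84, 5.20 and 4.96 CPM in KO spleen and at 8.93, 9.48, 6.13 and 8.16 in KO mLN, with no overlap but short of the threshold (0.55, adjusted p = 0.0599). Bpgm was at 26.4, 32.7, 23.5 and 21.1 CPM in KO spleen and at 41.7, 43.2, 34.8 and 27.3 in KO mLN (0.48, adjusted p = 0.0613).

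**Figure D3:**
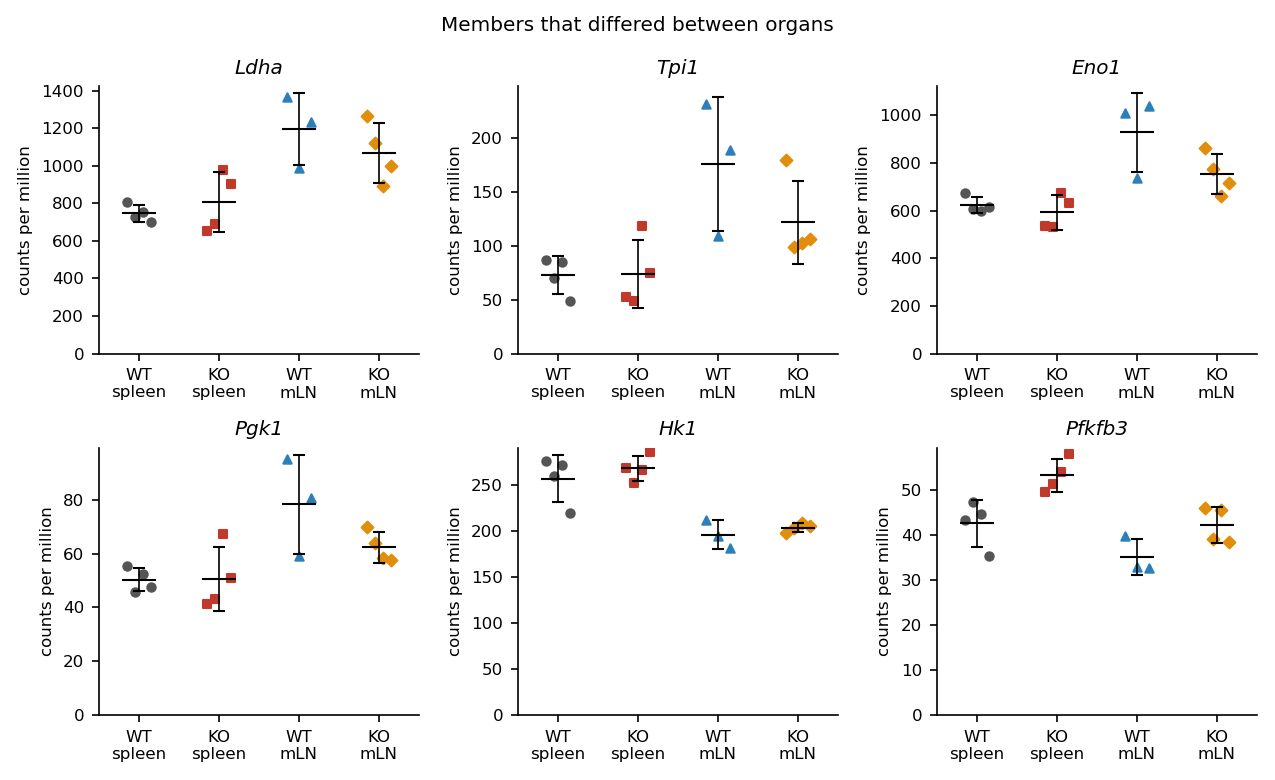
Levels (CPM) of 6 members in every sample by group, with the mean and SD as bars and axes from 0. Ldha, Tpi1, Eno1 and Pgk1 are higher in all 3 WT mLN samples than in all 4 WT spleen samples and overlap between the organs in KO, Hk1 is lower in all 7 mLN samples, and Pfkfb3 is separated between organs in KO.

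Of the 7 pentose phosphate genes, none was called between the WT organs and 1 between the KO organs, against 20.5% and 25.3% of all genes. Transaldolase (Taldo1), of the non-oxidative arm, was at 191, 172, 193 and 197 CPM in WT spleen and at 239.9, 202 and 243 CPM in WT mLN (log2 fold change 0.27, adjusted p = 0.0677), and at 203, 214, 221 and 223 CPM in KO spleen and 276, 256, 242 and 257 CPM in KO mLN (0.24, SE 0.06, adjusted p = 0.0154). No mLN sample overlapped with the spleen samples of its genotype, and the call was made in KO. Transketolase (Tkt), its partner, was at 173, 189, 167 and 184 CPM in WT spleen and at 215, 201 and 193 in WT mLN, without overlap but uncalled (0.18, adjusted p = 0.138), and in KO its organs overlapped (0.14). The oxidative enzymes G6pdx, Pgls and Pgd were not called in either genotype, with log2 fold changes between −0.12 and 0.15. Their summed level was 189.7 ± 9.14 CPM in WT spleen, 199.9 ± 6.58 in WT mLN, 190.0 ± 3.31 in KO spleen and 191 ± 9.97 in KO mLN (SD). Rpe and Rpia, which interconvert the pentose phosphates, were not called either (−0.35 to 0.05).

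Whether the organ effect differed between genotypes was asked with an interaction term in a fit of the 15 samples. No member was called, as was no gene (0% of 15438), by edgeR or by DESeq2 among the members. At an unadjusted p under 0.05 there were 2 members, against 4.22% of all genes. These were Pfkl (interaction −0.42, SE 0.18) and Pfkfb4 (1.28, SE 0.55), both with an adjusted p of 1 (edgeR). Pfkfb4 was low, at 2.39, 2.06, 3.44 and 6.12 CPM in WT spleen, 1.63, 1.08 and 2.54 in WT mLN, 2.98, 2.88, 3.22 and 2.35 in KO spleen and 5.12, 3.59, 3.07 and 2.06 in KO mLN. The interaction was negative for 26 of the 33 members, with a median of −0.12, so that the organ difference was nominally lower in KO for most of them, while 49.0% of all genes had a positive value. With 3 to 4 samples a group, this difference was not detectable for any single member.

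The wider HIF-1 list of 20 genes, its partners, regulators and further targets, moved in both directions between the organs. In WT mLN 7 of its 19 tested genes rose and 2 fell, and in KO mLN 4 of 18 rose and 3 fell, which is 47.4% and 38.9% called against 20.5% and 25.3% of all genes. Glucose transporter 1 (Slc2a1), which feeds the pathway, was at 53.8, 63.4, 62.0 and 58.0 CPM in WT spleen and at 102, 89.7 and 103 CPM in WT mLN (log2 fold change 0.72, adjusted p = 0.001), and it rose by 0.63 in KO mLN (adjusted p = 0.0123). The HIF prolyl hydroxylases Egln1 and Egln3 rose by 0.93 and 0.55 in WT mLN (adjusted p = 0.0035 and 0.023), and Ankrd37, a hypoxia-inducible gene, by 1.71 (adjusted p = 0.0087). P4ha1, Bnip3 and Bnip3l rose as well, by 0.83, 1.72 and 0.49. Hif1an, the asparaginyl hydroxylase that inhibits HIF-1α, fell by 0.84 in WT mLN (adjusted p = 0.003) and by 0.70 in KO mLN (adjusted p = 0.0058). Arnt, the partner of HIF-1α, fell by 0.28 in WT mLN. In KO mLN Egln1, Ankrd37 and Bnip3l rose by 0.58, 1.10 and 0.50, and Egln2 and Ddit4 fell by 0.28 and 0.54. Hif1a itself was at 497, 446, 608 and 357 CPM in WT spleen and at 623, 521 and 497 in WT mLN, which overlapped (0.19, adjusted p = 0.453), as they did in KO (0.06).

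Of 8 other transcription factors linked to glycolysis, 6 were tested in each genotype. Myc rose in mLN, from 71.5, 116, 81.7 and 123 CPM in WT spleen to 133, 222 and 206 CPM in WT mLN (log2 fold change 0.92, adjusted p = 0.0198), and by 0.98 in KO (adjusted p = 0.0024). Max, the dimerisation partner of MYC, fell in mLN, from 121, 136, 138 and 132 CPM in WT spleen to 46.4, 62.1 and 55.3 CPM in WT mLN (−1.28, adjusted p = 0.000257), and by 1.06 in KO. Mlxip, which encodes the glucose-responsive factor MondoA, fell by 0.42 in KO mLN (adjusted p = 0.0053). For Myc and Max the organs were fully separated in WT. Among 7 tested isozymes and transporters, Ldhd, a D-lactate dehydrogenase, rose by 0.999 in WT mLN and 1.56 in KO mLN on the log2 scale, Pklr, the liver and red cell pyruvate kinase, had 0 counts in all 3 WT mLN samples and a mean of 1.69 CPM in WT spleen, and Hk3 fell by 1.49 in KO mLN. These are 28.6% called in each genotype. Among 10 further pentose phosphate and ribose genes (20% called in each), Prps1, which makes phosphoribosyl pyrophosphate, rose by 0.47 and 0.50, and H6pd, the hexose 6-phosphate dehydrogenase of the endoplasmic reticulum, fell by 0.89 and 0.91 in WT and KO. Among 13 genes of branches off glycolysis (23.1% called in WT and 30.8% in KO), the serine synthesis gene Psph rose by 0.42 and 0.26, while Gfpt1, which opens hexosamine synthesis, fell by 0.77 and 0.58 and Minpp1 by 0.41 and 0.40. Shmt2, of mitochondrial one-carbon metabolism, rose by 0.30 in KO mLN. The shares over all genes were 20.5% in WT and 25.3% in KO.

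Markers of other cells and states moved with the organ comparison. The summed myeloid markers were at 208 to 611 CPM in WT spleen and 96.8 to 239.7 in WT mLN, and at 179.7 to 579 CPM in KO spleen and 79.0 to 106 in KO mLN. Of these markers 2 of 7 fell in WT mLN (28.6%, against 20.5% of all genes called). In KO mLN 5 of 6 tested fell (83.3%, against 25.3%). The summed B cell markers, nearly all Ighm, were at 48.9 to 175 CPM in WT spleen and 179.8 to 548 in WT mLN, and at 39.7 to 125 in KO spleen and 204 to 302 in KO mLN, without overlap. The 2 CD8 T cell markers together were at 2.58 to 4.96 CPM in WT spleen and 7.31 to 11.5 in WT mLN, and at 1.57 to 4.42 in KO spleen and 19.5 to 28.3 in KO mLN, again without overlap. Cycling genes overlapped between the organs in WT (523 to 809.6 against 658 to 839 CPM) and were at 708 to 859.8 in KO spleen and 798 to 1089 in KO mLN, where 4 of 10 rose (40%, against 25.3% of all genes called). The part of these shifts in the members' differences was not tested. The 3 WT libraries with many red cell transcripts sat in both organs. Without them, with 2 samples against 2, no WT member was called between the organs by edgeR, although the 9 kept their direction (Ldha 0.60, adjusted p = 0.0609, and Tpi1 1.09, adjusted p = 0.0705).

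The promoters of these genes are shown because many of them are textbook HIF-1 and MYC targets. RefSeq (GRCm38.p6) listed a start for all 33 members, and the 250 bases before it were searched on both strands for ACGTG or GCGTG, the core of the hypoxia response element, CACGTG, the E-box that MYC and MAX bind and that contains ACGTG, and GGGCGG, the GC box. The HIF core was found for 26 of 33 members (78.8%) and in 38.6% of 27025 promoters, the E-box for 2 (6.06%, against 6.05%) and the GC box for 22 (66.7%, against 32.9%). The median GC content of the windows was 59.6% for the members and 52.0% for all promoters, and the part of GC content in these shares was not tested. Of the 8 members that rose in WT mLN, 6 had a HIF core and Gpi1 and Tpi1 had none. A match is only a run of letters and does not show binding. The windows printed are 5 of members called between the organs that lie outside annotated exons, and that of Rpe, which has no match. They are Ldha (chr7:46846832-46847081), Pgk1 (chrX:106186850-106187099), Pgam1 (chr19:41911621-41911870), Slc16a1 (chr3:104638414-104638663), Taldo1 (chr7:141391910-141392159) and Rpe (chr1:66700581-66700830), all on the plus strand, with matches to the HIF core on either strand in capitals:
Ldha: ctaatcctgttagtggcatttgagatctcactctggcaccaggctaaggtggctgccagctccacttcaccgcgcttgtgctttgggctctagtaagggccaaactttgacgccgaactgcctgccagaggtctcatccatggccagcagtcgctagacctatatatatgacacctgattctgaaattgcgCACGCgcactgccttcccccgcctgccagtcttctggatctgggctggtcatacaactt
Pgk1: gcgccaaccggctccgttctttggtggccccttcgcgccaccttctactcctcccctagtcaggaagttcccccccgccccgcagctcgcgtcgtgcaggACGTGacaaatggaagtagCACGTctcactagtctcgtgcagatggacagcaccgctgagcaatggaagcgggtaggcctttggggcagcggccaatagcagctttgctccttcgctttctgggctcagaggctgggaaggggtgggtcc
Pgam1: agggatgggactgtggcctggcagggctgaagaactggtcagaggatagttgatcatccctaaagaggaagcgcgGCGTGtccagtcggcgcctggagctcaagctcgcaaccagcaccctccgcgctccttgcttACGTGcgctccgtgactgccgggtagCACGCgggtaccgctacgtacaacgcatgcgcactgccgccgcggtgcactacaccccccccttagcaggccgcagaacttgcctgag
Slc16a1: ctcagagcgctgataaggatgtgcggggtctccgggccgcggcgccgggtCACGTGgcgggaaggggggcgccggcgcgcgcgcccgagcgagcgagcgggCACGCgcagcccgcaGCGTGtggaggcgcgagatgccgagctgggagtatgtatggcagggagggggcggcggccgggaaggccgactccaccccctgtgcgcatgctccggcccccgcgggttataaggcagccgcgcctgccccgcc
Taldo1: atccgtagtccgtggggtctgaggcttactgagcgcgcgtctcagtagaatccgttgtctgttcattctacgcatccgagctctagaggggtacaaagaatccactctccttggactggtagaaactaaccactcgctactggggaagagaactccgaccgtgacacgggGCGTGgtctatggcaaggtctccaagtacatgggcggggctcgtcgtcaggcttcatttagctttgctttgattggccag
Rpe: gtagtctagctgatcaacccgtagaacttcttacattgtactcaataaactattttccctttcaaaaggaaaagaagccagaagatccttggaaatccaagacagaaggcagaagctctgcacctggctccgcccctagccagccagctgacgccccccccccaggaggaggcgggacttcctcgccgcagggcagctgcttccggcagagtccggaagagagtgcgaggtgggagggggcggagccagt

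Slc16a1, called higher in KO mLN, held 4 core matches, of which the 2 to ACGTG are both strands of 1 E-box. Pgam1 held 3.

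In spleen, no member was called between KO and WT T cells in the reported test. None of 33 passed the edgeR test (adjusted p under 0.05), against 1.3% of all 14254 genes, while 6 (18.2%) had an unadjusted p under 0.05, against 20.5% of all genes, and DESeq2 called 1, Bpgm. The median log2 fold change was 0.01, with 19 positive and 14 negative. Groups did not overlap for 3 members, or 9.09%, against 12% of all genes. They were Pfkfb3, Taldo1 and Rpe, each higher in KO. Taking the values given above, Pfkfb3 stood 0.32 higher on the log2 scale (SE 0.10, adjusted p = 0.112) and Taldo1 0.19 higher (SE 0.06, adjusted p = 0.144). Rpe, ribulose 5-phosphate epimerase, was at 82.9, 66.4, 77.2 and 64.2 CPM in WT spleen and at 86.2, 86.5, 86.2 and 97.1 CPM in KO spleen (0.29, SE 0.09, adjusted p = 0.117). In mLN, where the genotypes overlapped for all 3, the log2 fold changes were 0.27, 0.17 and 0.26. Tigar, a fructose 2,6-bisphosphatase that opposes phosphofructokinase and favours the pentose phosphate pathway, was at 6.95, 7.94, 8.22 and 5.74 CPM in WT spleen and at 7.92, 7.93, 10.6 and 12.8 CPM in KO spleen. Its groups overlapped (0.44, SE 0.20, adjusted p = 0.236).

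In mLN, 1 member fell in KO T cells and none rose (edgeR), against 0.641% of all 14359 genes called, and 7 (21.2%) had an unadjusted p under 0.05, against 15.7% of all genes. The median log2 fold change was −0.13, with 12 positive and 21 negative, against −0.00 over all genes. Groups did not overlap for 3 members, or 9.09%, against 14% of all genes, and Aldoc, Pfkl and Pgls were all lower in KO. The sign of the KO difference was the same in both organs for 18 of 33 members, or 54.5%, and for 71.3% of the 13759 genes tested in both. These signs describe the values, since nearly all of them come from members that were not called. Summed CD8 T cell markers were at 7.31 to 11.5 CPM in WT mLN and 19.5 to 28.3 in KO mLN, and cycling genes at 658 to 839 and 798 to 1089 CPM. Of 3 tested B cell markers 1 was called higher in KO mLN (33.3%, against 0.641% of all genes). Its log2 fold change was 4.40, and the other 2 were negative. The part of these markers in the members' differences was not tested.

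Aldoc (chr11:78322968-78327781) was the member that fell. It had 76, 53 and 74 counts in WT mLN and 12, 8, 22 and 20 in KO mLN, or 7.29, 5.21 and 7.51 CPM against 1.12, 0.736, 2.18 and 1.79 CPM. Every KO sample was below every WT sample, with a mean 78.2% lower and a log2 fold change of −2.19 (SE 0.40, adjusted p = 0.0422). In spleen it was at 2.70, 2.37, 1.82 and 5.15 CPM in WT and 1.23, 1.13, 1.99 and 0.722 CPM in KO, where KO spleen 3 overlapped with WT (−1.25, SE 0.39, adjusted p = 0.123). The interaction for Aldoc was −0.95 (SE 0.58, adjusted p = 1), so the organs were not shown to differ. Its share of the aldolase transcripts per kb was 0.6% ± 0.04 in WT mLN and 0.16% ± 0.08 in KO mLN (SD), so that Aldoa carried nearly all aldolase transcripts in both. The call rested on all 7 samples, since leaving out any 1 of them put the adjusted p at 0.0632 to 0.153, while the log2 fold change stayed between −2.45 and −1.96.

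Pfkl and Bpgm were the next members by p-value. Pfkl was at 180.0, 149.8 and 168 CPM in WT mLN and at 143, 117, 91.8 and 99.7 CPM in KO mLN, without overlap but uncalled by edgeR (log2 fold change −0.55, SE 0.14, adjusted p = 0.109). DESeq2 called it (adjusted p = 0.0129), as did edgeR with all 15 samples in 1 fit (adjusted p = 0.0365). In spleen it was at 112, 115, 140.0 and 112 CPM in KO, within the reach of WT (−0.13). As a share of the 3 isozymes per kb, Pfkl was 47.9% ± 1.10 in WT mLN and 36.6% ± 6.05 in KO mLN, and Pfkp 46.9% ± 1.71 and 57.2% ± 3.82 (SD).

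Bpgm was lower in KO in both organs without passing the edgeR test. It was at 27.4, 33.3, 57.5 and 63.9 CPM in WT spleen and at 42.5, 60.6 and 79.5 CPM in WT mLN, with the KO values given above (spleen −0.82, SE 0.26, adjusted p = 0.125; mLN −0.73, SE 0.21, adjusted p = 0.15). The highest WT values were those of WT spleen 3 and 4 and WT mLN 4, the libraries with 814 to 1902 CPM of red cell markers. Without these 3, the log2 fold changes were −0.23 in spleen (adjusted p = 0.543) and −0.49 in mLN (adjusted p = 0.485). For Aldoc in mLN the log2 fold change without WT mLN 4 was −2.10 (adjusted p = 0.153), and WT mLN 1 and 2, with 21.6 and 32.1 CPM of red cell markers, had 7.29 and 5.21 CPM of Aldoc.

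**Figure D4:**
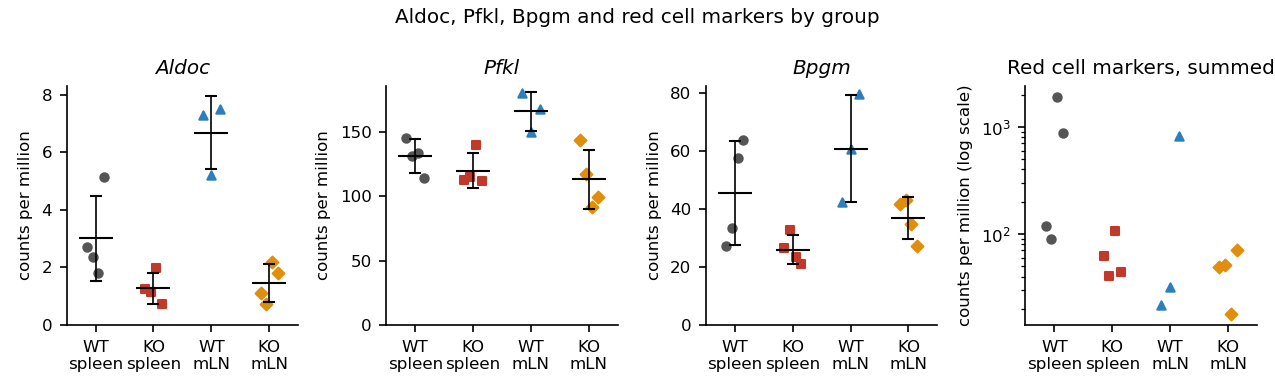
Levels (CPM) of Aldoc, Pfkl and Bpgm in every sample by group, with the mean and SD as bars and axes from 0, and the summed level of 6 red cell markers on a log axis. Aldoc and Pfkl are lower in all 4 KO mLN samples than in all 3 WT mLN samples, and the 3 libraries with 814 to 1902 CPM of red cell markers are the highest of their groups for Bpgm.

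The other members with an unadjusted p under 0.05 in mLN overlapped between the genotypes, and none was called. Gpi1 in KO mLN was at 360.4, 330.1, 317 and 312 CPM (log2 fold change −0.23, adjusted p = 0.236), and Eno1, with the values above, had one of −0.30 (adjusted p = 0.27). Slc16a3 was at 47.6, 15.5 and 35.9 CPM in WT mLN and at 23.7, 20.6, 8.41 and 18.2 CPM in KO mLN (−0.89, SE 0.37, adjusted p = 0.281). Ldhb, the isozyme that favours lactate oxidation, was the 1 that was higher in KO, at 10.2, 12.0 and 16.6 CPM in WT mLN and 16.1, 21.0, 23.7 and 16.3 CPM in KO mLN (0.58, SE 0.23, adjusted p = 0.255). The remaining 26 members had log2 fold changes from −0.53 to 0.98, with adjusted p-values of 0.32 and above.

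**Figure D5:**
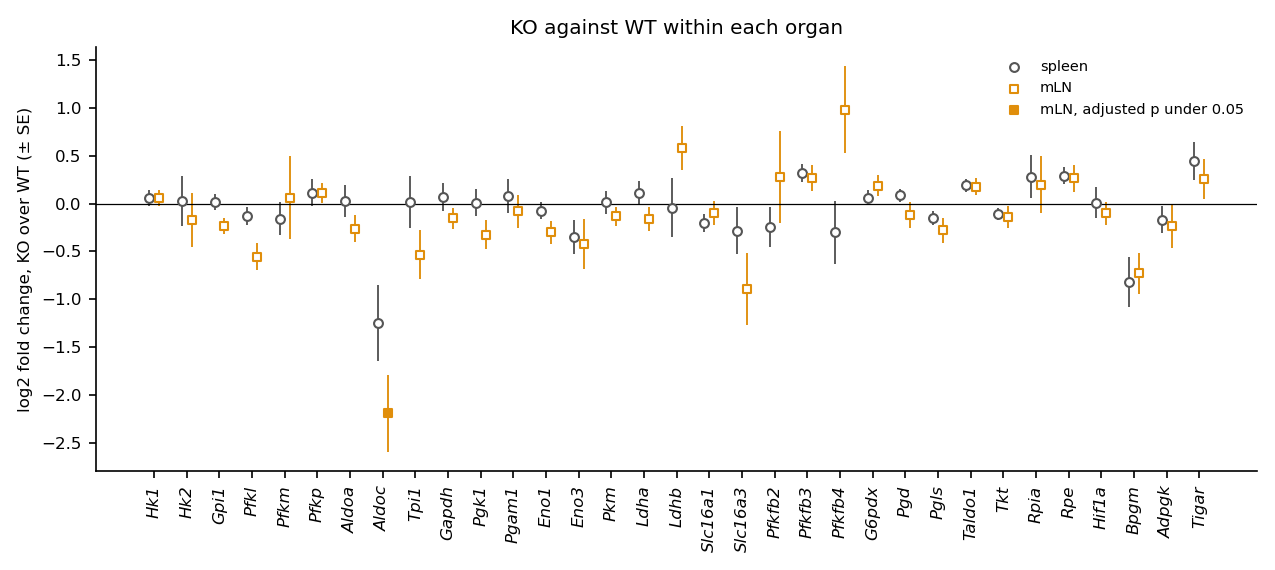
Log2 fold change of KO over WT for each member (± SE) in spleen and in mLN, in the order of the member list. A filled symbol marks an edgeR adjusted p under 0.05. Aldoc in mLN, at −2.19, is the filled symbol, Bpgm is below 0 in both organs, and most other values lie within 0.5 of 0.

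Among the other pathway genes, KO against WT gave 2 calls in spleen and none in mLN (edgeR), against 1.3% and 0.641% of all genes. Both calls were among the 6 tested transcription factors of glycolysis. All 6 had an unadjusted p under 0.05 in spleen (4 higher and 2 lower), as had 4 in mLN (2 higher and 2 lower). Groups did not overlap for 50% of the 6 in spleen and 66.7% in mLN, against 12% and 14% of all genes. Myc was at 57.5, 60.2, 38.6 and 42.6 CPM in KO spleen, below all WT spleen values (−0.98, SE 0.20, adjusted p = 0.0453), and Max was at 169.6, 164, 158 and 163 CPM in KO spleen, above all WT spleen values (0.31, SE 0.06, adjusted p = 0.0453). No gene of the HIF-1 list was called in either organ. At an unadjusted p under 0.05 there were 6 of its 19 tested genes in spleen (1 higher and 5 lower) and 4 of 18 in mLN (all lower), against 20.5% and 15.7% of all genes.

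Some members cannot be counted cleanly. Reads that map to several places were left out of the counts, and 52.8% of the 75-base windows of Pgk1 transcripts, 34.9% of those of Pgam1, 23.0% of those of Eno1 and 22.6% of those of Gapdh also occur in other annotated genes, mostly pseudogenes, so the levels of these genes are underestimates. Genes on the opposite strand can add reads to a member, and such genes cover 11.5% of the exon bases of Gpi1, 17.9% of those of Rpe and 1.84% of those of Hk1. Aldoc, Pfkl, Hk2, Bpgm and Tkt shared no window.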

How the data were processed

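RNA from sorted CD4+ T cells was sequenced in 15 samples (WT spleen 4, KO spleen 4, WT mLN 3, KO mLN 4), grouped by their labels. The authors aligned the reads with STAR 2.6.1a to GRCm38 with GENCODE annotation, and the deposited values are the unnormalised counts of reads per gene that STAR reports, in which reads mapping to several places are not assigned to a gene. The submitters' processing notes also name bcl2fastq 2.19.1.403, RSEM and DESeq2 1.22.2. The strandless column was used, so that reads of genes on opposite strands cannot be told apart. Reads on no gene were 58.4% to 63.4% of the uniquely mapped reads and stayed out of library sizes, and multimapping reads were 7.70% to 9.44% of all reads. The multimapping share was higher in mLN, without overlap within a genotype. It was 7.82% to 8.33% in WT spleen and 9.32% to 9.44% in WT mLN. In KO it was 7.70% to 8.26% in spleen and 8.62% to 9.40% in mLN. Its part in the organ differences of the members, among them Pgk1, Pgam1 and Eno1, was not tested. A WT mLN sample that the authors left out for quality is not analysed here.

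From the counts, edgeR 4.0.16 (R 4.3.3, filterByExpr, TMM factors, quasi-likelihood test, two-sided) was fitted to each comparison on its own groups, and p-values were adjusted by Benjamini-Hochberg over all genes tested. Calls had an adjusted p under 0.05, with no minimum fold. Every adjusted p in the text is from edgeR unless DESeq2 1.42.0 is named. SE is the log2 fold change divided by the square root of F. The interaction used all 15 samples. The scripts were tested on simulated data. The study's legends give the groups as mice, while the labels give a replicate number only, and samples were treated as separate mice within a group. The reported tests did not use the numbers as pairs. The deviations of all 3 same-numbered WT organ pairs correlated (r = 0.261 to 0.337, other pairs −0.233 to 0.038), and a replicate block was fitted as an alternative. In the KO organs same-numbered pairs had r = 0.024 to 0.272 and other pairs −0.170 to 0.0938. In each comparison other than the WT organs, the ranges of same-numbered and other pairs overlapped.

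The 33 members and the further lists were chosen with earlier results of these data known. Members with an unadjusted p under 0.05 in a comparison were given with every sample, the others by range and count, and genes of further lists were named where called. The result of 1 marker list is not reported here. Alternatives were DESeq2, RLE factors, no filter, a minimum of 10 counts per sample, a joint fit of the 15 samples, a replicate block and leaving out each sample. Leaving out the 3 libraries with over 500 CPM of summed red cell markers was added after seeing the data. Levels per kb used exon lengths of the annotation in which 55240 of 55421 gene IDs matched. Promoter windows of 250 bases came from RefSeq (GRCm38.p6), using for members the start that fits the longest coding transcript and for all promoters the first start listed. For Pgam1, Eno3, Slc16a1, Taldo1 and Hif1a the only start listed matched the beginning of no annotated transcript, and it was used as listed. Figures were drawn with matplotlib 3.10.9.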

Additional observations from a re-analysis of the deposited data

Results flagged for a closer look

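In the groups of 4 samples, 99 sets of a member's values were searched for a sample far from the other 3 by Dixon's criterion, and 4 were found, where chance gives about 1 in 20. Pfkl was at 140.0 CPM in KO spleen 3 and at 112 to 115 CPM in the other KO spleen samples. Tpi1 was at 179 CPM in KO mLN 1 and at 98.5 to 106 CPM in the others. Rpe was at 97.1 CPM in KO spleen 4 and at 86.2 to 86.5 CPM in the others. Hif1a was at 623 CPM in KO mLN 2 and at 459.8 to 478 CPM in the others. In each case the distant sample was the highest of its group.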

How the results depend on the processing

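For KO against WT in spleen, 0 members were called in the reported test, 1 with DESeq2 (5.89% of all genes) and 4 without a filter on low counts (4.03%), namely Aldoc, Bpgm, Pfkfb3 and Rpe. For KO against WT in mLN, 1 was called in the reported test (0.641% of all genes). DESeq2 called 3, the unfiltered fit 5 and all 15 samples in 1 fit 2. At least 10 counts in every sample gave 0, since Aldoc then drops out. The replicate block and the fit without the libraries high in red cell markers also gave 0, and leaving out 1 sample gave 0 to 1, the 1 being Pfkl without KO mLN 1. Between the WT organs, where 9 were called, the replicate block gave 18, leaving out the red cell libraries 0 (10.2% of all genes still called), and leaving out 1 sample 3 to 8. Between the KO organs, where 5 were called (25.3% of all genes), leaving out 1 sample gave 3 to 7 and the replicate block 7. Where no share of all genes stands beside a refit, its count is not set against one. Such a count says nothing particular to the members. The interaction gave 0 throughout. In KO against WT the numbers were not shared by paired samples (r −0.235 to 0.145 in spleen, −0.055 to 0.007 in mLN), and in the KO organs r was 0.024 to 0.272. Over 42 fold changes of single members and 606 refits, 497 kept their side of the threshold, 64 lost the call, 45 gained it and 0 changed sign. Where no construction of the fit shows it, the cause was not tested. The lowest members rest on few reads, with down to 8 counts for Aldoc, 11 for Pfkfb4 and 14 for Pfkfb2 in 1 sample.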

Other observations

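Gm33707, a processed pseudogene on chromosome 3 that shares 2 windows of 75 bases with Eno1, had 0 counts in all 7 WT samples, 65, 86, 75 and 85 counts in KO spleen and 38, 24, 20 and 57 counts in KO mLN. It was chosen after its values were seen.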
